A study of Homo sapiens with 6 samples.

Results

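The genes described here encode the machinery that brings nuclear-encoded proteins into mitochondria: 35 of the 19669 named genes in the deposited table. They were chosen by symbol alone: every TIMM and TOMM gene, TIMMDC1, and SAMM50, MTX1, MTX2, CHCHD4, GFER, PAM16, GRPEL1, PMPCA and PMPCB. mRNA (RNA-seq) and ribosome-protected mRNA fragments (Ribo-seq, called footprints below) were measured in 786-O, an established line from a clear cell renal carcinoma. The 3 labels are EV, for empty vector, WT and MT. Each label had a single library per assay, which makes 6 libraries. The series title gives WT as PHYHD1 and MT as PHYHD1 lacking segment 107 to 130, while the design text calls MT the overexpressing cells and WT untreated. Footprints were stabilised with 100 µg/ml cycloheximide in the medium. The sources used here do not give the promoter of the insert, or whether a line was 1 clone or a pool.

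PHYHD1 mRNA stood at 0.092 FPKM in EV, 118 in WT and 109.5 in MT, while its footprints stood at 0, 222 and 905 TPM, so the library labelled WT carried PHYHD1 mRNA that EV nearly lacked. Of 10 markers of a renal carcinoma line, 9 were at 1 unit or more in all 6 libraries, and CA9 was listed at 0 in all but 1. The 8 markers of blood, endothelium, fibroblasts and liver reached at most 0.256 units, with summed levels of 0 to 0.131 FPKM and 0 to 0.256 TPM. The design text names 3 dishes per condition, and the sources used here do not say whether they were pooled into the single libraries. Without replicate libraries, differences carry no SD and no p-value and describe libraries, not conditions. Values are shares of a library, so fewer cells of a type and less RNA per cell cannot be told apart. Read totals are unknown. Genes above 0 in 1 library alone had medians of 0.038 to 0.046 FPKM and 0.118 to 0.148 TPM. How many reads a value near 1 unit rests on is not known, so such values are read with caution.

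Most mitochondrial proteins are made in the cytosol and cross the outer membrane through the TOM complex. From there the TIM23 complex and its ATP-driven motor pull proteins with a presequence into the matrix, the TIM22 complex inserts carrier proteins into the inner membrane, the SAM complex folds beta-barrel proteins into the outer membrane, and the MIA relay traps proteins in the intermembrane space by forming disulfide bonds. Kidney tubule cells are rich in mitochondria, and clear cell renal carcinoma is known for a reduced oxidative metabolism.

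RNA-seq values below are in FPKM and Ribo-seq values in TPM, both scaled to gene length, in the order EV, WT, MT. Calls of higher or lower need a 1.5-fold difference between values to which 1 was added. This threshold sorts genes by size of difference only. In EV the members' median level was 20.2 FPKM and 69.9 TPM, against 13.2 and 13.5 for genes at 1 unit or more. The shares of all genes past 1.5-fold given below are not matched on level. Of the 35 members, 34 reached 1 unit and were compared. TOMM20L, a relative of TOMM20, was listed at 0 in all libraries except Ribo-seq WT (0.222 TPM). The members made up 0.202%, 0.223% and 0.212% of the RNA-seq sums and 0.480%, 0.457% and 0.483% of the Ribo-seq sums in EV, WT and MT.

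In the TOM complex, TOMM20 was the most abundant member as mRNA and TOMM5 as footprints. TOMM20, a receptor for presequences, had 86.9, 89.2 and 89.4 FPKM as mRNA and 204, 208 and 181 TPM as footprints. Its mRNA varied least of the 32 members that reached 5 units, with a highest over lowest value of 1.03. TOMM70, the receptor for hydrophobic carrier precursors handed over by chaperones, stood at 37.6, 41.4 and 39.5 FPKM and at 33.8, 32.4 and 34.1 TPM. TOMM40, the beta-barrel pore, stood at 40.1, 53.6 and 45.6 FPKM and at 48.5, 38.6 and 51.4 TPM. The library with the most TOMM40 mRNA, WT, had the fewest TOMM40 footprints. TOMM22, the central receptor that holds the complex together, likewise had its highest mRNA and its lowest footprint value in WT, with 22.4, 28.4 and 25.6 FPKM and 221, 179 and 203 TPM. The small subunits TOMM5, TOMM6 and TOMM7, which stabilise the complex, had more footprints per unit of mRNA than TOMM20, TOMM40 and TOMM70. TOMM22 did not follow this split. Its TPM per FPKM was 9.84, 6.28 and 7.90, above TOMM6 in EV (8.76) and below it in WT and MT (8.02 and 9.10). TOMM5 stood at 53.4, 61.3 and 51.4 FPKM and 838, 736 and 776 TPM. TOMM6 stood at 63.7, 64.6 and 61.6 FPKM and 558, 518 and 561 TPM, and TOMM7 at 47.7, 44.1 and 45.5 FPKM and 582, 606 and 636 TPM. TOMM40L, a paralogue of TOMM40, was near the lower limit, with 2.79, 2.88 and 2.38 FPKM and 1.77, 1.01 and 0.655 TPM. TOMM34, a cytosolic protein that binds the HSP70 and HSP90 chaperones, stayed within 1.3-fold across labels at 48.5, 49.97 and 47.0 FPKM and 84.5, 78.9 and 77.6 TPM.

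Among the members that act beyond the pore, the SAM genes stayed within 1.3-fold across labels in both assays. SAMM50, the beta-barrel insertase, stood at 20.2, 22.1 and 23.5 FPKM and at 36.0, 31.3 and 32.4 TPM. Its partners, the metaxins, stood at 16.4, 15.6 and 18.6 FPKM and 53.6, 60.5 and 54.3 TPM for MTX1 and at 33.8, 36.1 and 35.7 FPKM and 98.2, 105 and 98.4 TPM for MTX2. The MIA relay genes were among the least abundant mRNAs. CHCHD4, the oxidoreductase that makes the disulfide bonds, stood at 8.98, 6.79 and 6.61 FPKM and 29.2, 25.5 and 34.3 TPM. GFER, which reoxidises CHCHD4, stood at 6.49, 6.87 and 6.94 FPKM and 14.0, 16.5 and 18.5 TPM. EV had the most CHCHD4 mRNA and MT the most CHCHD4 footprints.

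The small TIM chaperones, which guide hydrophobic proteins across the intermembrane space, spanned from 6.08 to 27.7 FPKM. TIMM9 and TIMM10, which form a ring together, stood at 12.6, 15.2 and 13.6 FPKM and 87.1, 96.7 and 96.0 TPM for TIMM9 and at 21.0, 27.7 and 27.5 FPKM and 170.0, 160.5 and 145 TPM for TIMM10. TIMM10 mRNA was lowest in EV and its footprints were highest there. TIMM8A, the gene of a deafness and dystonia syndrome, stood at 6.08, 7.17 and 6.73 FPKM and 30.0, 33.05 and 24.6 TPM. Its paralogue TIMM8B stood at 16.3, 13.9 and 18.9 FPKM and 222, 179.9 and 224 TPM, and TIMM13, partner of the TIMM8 proteins, at 19.9, 22.5 and 26.6 FPKM and 374, 363 and 413 TPM. TIMM13 had the most footprints of this group in every label. TIMM10B, which docks on the TIM22 complex, stood at 11.8, 8.27 and 8.71 FPKM and 16.2, 14.0 and 16.2 TPM, with more mRNA in EV than in both other libraries. In the TIM22 complex the channel gene TIMM22 stood at 6.33, 6.99 and 6.97 FPKM and 21.5, 26.6 and 25.4 TPM. TIMM29, another subunit, stood at 5.66, 4.05 and 6.49 FPKM and 40.5, 49.6 and 31.5 TPM, so WT had the least mRNA and the most footprints and MT the reverse. Of the 32 members that reached 5 units, TIMM29 varied most over the labels in both assays, with a highest over lowest value of 1.60 in RNA-seq and 1.57 in Ribo-seq. The median of that ratio was 1.19 in RNA-seq and 1.17 in Ribo-seq.

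In the TIM23 complex the channel gene TIMM23 led, with 73.2, 80.2 and 80.9 FPKM and 198, 193 and 197 TPM. TIMM17A, its partner in the channel, stood at 35.2, 39.9 and 35.2 FPKM and 134, 130.4 and 134 TPM, the smallest footprint range of the 32 members (1.03-fold). The other isoform, TIMM17B, stood at 18.9, 22.9 and 22.8 FPKM and 58.4, 46.7 and 43.8 TPM, and EV had both its lowest mRNA and its highest footprint value. TIMM50, the receptor that passes precursors to the channel, stood at 27.6, 35.1 and 34.4 FPKM and 69.9, 69.3 and 77.6 TPM, and TIMM21, which links TIM23 to TOM and the respiratory chain, at 12.2, 12.4 and 11.5 FPKM and 24.3, 21.8 and 19.2 TPM. TIMM23B, a near-identical copy of TIMM23, stood at 4.52 to 4.92 FPKM and 2.42 to 3.59 TPM. Its reads cannot be told apart from those of TIMM23 with certainty, and its 3 Ribo-seq values are identical to those listed for the readthrough gene TIMM23B-AGAP6.

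Of the motor genes, TIMM44, which tethers the matrix HSP70 to the channel, stood at 33.04, 35.3 and 27.7 FPKM and 29.1, 25.6 and 27.5 TPM. PAM16, which controls the HSP70 cycle, stood at 10.2, 12.8 and 8.85 FPKM and 98.3, 91.7 and 116 TPM, with the order of the labels reversed between assays. The readthrough gene CORO7-PAM16, which overlaps PAM16, was at 0.31, 0.797 and 0.107 FPKM and at 0.306 TPM or less. GRPEL1, the nucleotide exchange factor of the motor, stood at 17.1, 19.3 and 17.7 FPKM and 189.7, 181 and 214 TPM. The presequence peptidase genes also stayed within 1.3-fold, PMPCA at 32.7, 39.1 and 35.4 FPKM and 59.9, 50.2 and 56.3 TPM and PMPCB, the catalytic subunit, at 49.9, 50.2 and 48.8 FPKM and 75.0, 88.6 and 86.2 TPM. TIMMDC1, which by its known role assembles complex I and is not a translocase, stood at 46.8, 43.4 and 39.4 FPKM and 98.5, 105 and 125 TPM. In a current annotation 12 of the 35 members overlap another gene of the table, among them TIMM22 (ABR), TIMM17B (PQBP1), MTX1 (THBS3) and PMPCB (PSMC2 and DNAJC2). The sources used here do not say whether reads were counted by strand.

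**Figure D1:**
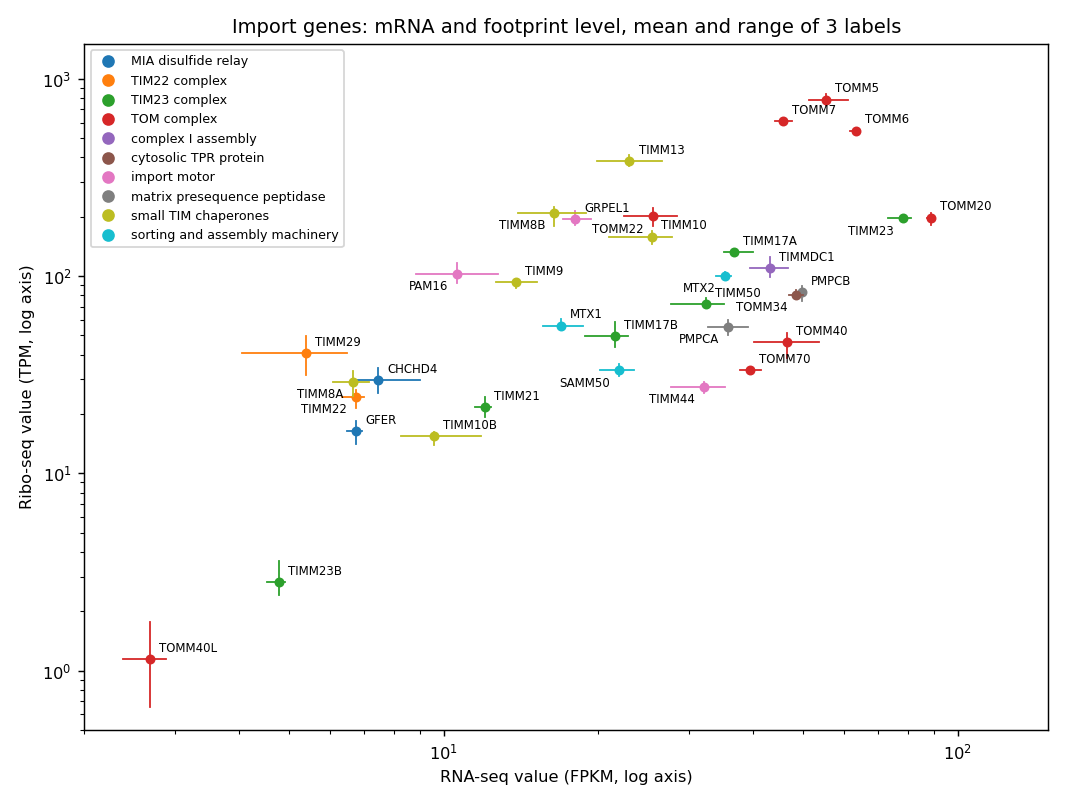
Mean RNA-seq value (x axis, FPKM, log) and mean Ribo-seq value (y axis, TPM, log) of 34 import genes over the 3 labels, coloured by role, with lines from the lowest to the highest label. TOMM5, TOMM6 and TOMM7 lie at the top, and TIMM23B and TOMM40L at the bottom left.

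In every label the members carried more footprints per unit of mRNA than most genes. This quotient, TPM divided by FPKM, had a median of 3.10 in EV, 2.91 in WT and 2.91 in MT over the 33 members at 1 unit or more in all 6 libraries, against 1.12, 1.15 and 1.13 over 9712 genes. It lay above the median of all genes in all 3 labels for 29 of the 33. For 11 members it was at percentile 90 or above among all genes in every label. These are TOMM5 (ratio 15.7 in EV, 12.0 in WT and 15.1 in MT), TOMM6, TOMM7, TOMM22, TIMM8B, TIMM9, TIMM10, TIMM13 (18.8, 16.1 and 15.5), TIMM29, PAM16 and GRPEL1. Small TIM chaperones and small TOM subunits made up 7 of these 11. TIMM44 (0.881, 0.725 and 0.992), TOMM70 (0.898, 0.781 and 0.864) and TIMM23B lay below the median in every label. The sources used here do not give the length to which each assay was scaled, and its part in the order of these ratios was not tested.

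**Figure D2:**
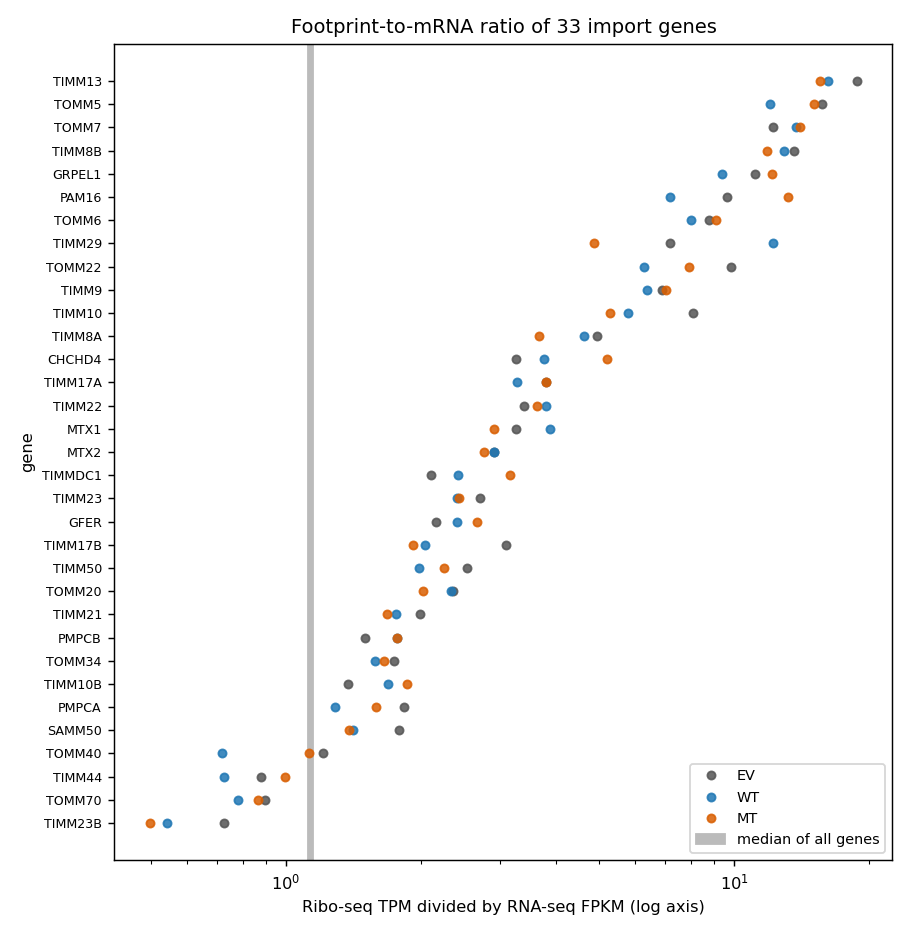
Ribo-seq TPM divided by RNA-seq FPKM (x axis, log) for 33 import genes in EV, WT and MT, ordered by the mean of the 3; the grey band spans the medians of all genes in the 3 labels (1.12 to 1.15). TIMM13, TOMM5, TOMM7 and TIMM8B are at the top, and TIMM29 runs from 4.86 in MT to 12.2 in WT.

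Set against EV, the WT library had slightly more mRNA for most import genes and none past 1.5-fold. The count was 0 of 34, where 2.63% of all 11032 genes passed. The members' median log2 ratio was 0.11 with 26 of 34 above 0, against -0.01 and 48.9% for all genes. TOMM40 was highest, with a log2 ratio of 0.41, and 2.54% of the genes within 2-fold of its level differed by as much. TIMM10 (0.39), TIMM50 (0.33) and TOMM22 (0.33) followed. TIMM10B (-0.46), TIMM29 (-0.40) and CHCHD4 (-0.36) were lowest. By role, 7 of 8 TOM genes and 5 of 6 TIM23 genes lay above 0.

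In MT over EV, mRNA differences were of similar size. Again 0 of 34 members passed, where 2.31% of all genes did. The median was 0.07 with 21 of 34 above 0, against -0.01 and 48.7% for all genes. TIMM13 (0.40), TIMM10 (0.38) and TIMM50 (0.31) were highest. TIMM10B (-0.40), CHCHD4 (-0.39), TIMMDC1 and TIMM44 (both -0.24) were lowest. WT and MT are both set against the same EV library, so its values for TIMM10B, CHCHD4 and TIMM10 enter both comparisons.

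Between WT and MT the mRNA count was also 0 of 34, where 3.23% of all genes passed, with a median of 0.04. In WT over MT 23 of 34 members lay above 0, against 51.0% of all genes. PAM16 was the highest in WT (0.48), before TIMM44 (0.34) and TOMM5 (0.25). TIMM29 came closest to the threshold (-0.57), then TIMM8B (-0.41) and MTX1 (-0.24), all lower in WT. With a pseudocount of 0.1, TIMM29 passed. Over the 34 members, WT held the highest mRNA value of the 3 labels for 21, MT for 8 and EV for 5. In footprints EV held the highest value for 14, MT for 12 and WT for 8. The same counts were not made over all genes, so they describe the members only.

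Footprints gave the opposite balance in WT. Of 34 members 11 lay above 0 in WT over EV, with a median log2 ratio of -0.07, against 53.4% and 0.03 for all genes. None passed 1.5-fold, where 12.1% of all genes did. TIMM22 (0.29), TIMM29 (0.28) and PMPCB (0.24) were highest. TOMM40 and TIMM17B (both -0.32) and TOMM22 (-0.30) were lowest among members with 5 TPM or more, while the scarce TOMM40L and TIMM23B stood at -0.46 and -0.41. All 6 TIM23 genes and all 3 motor genes lay below 0, with medians of -0.09 and -0.10.

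In MT over EV the footprints were balanced, with 17 of 34 members above 0 and a median of 0.00, against 52.05% and 0.01 for all genes. The count past 1.5-fold was 1 of 34, where 10.8% of all genes passed. That member was TOMM40L, lower in MT (-0.74), at values under 2 TPM, near the lower limit. Of genes within 2-fold of its level, 14.8% differed by as much. The call was lost with a pseudocount of 5 or a minimum of 10 units. GFER (0.38), TIMMDC1 (0.34) and PAM16 (0.24) were highest among the others. TIMM17B (-0.41), TIMM29 (-0.35) and TIMM21 (-0.32) were lowest among members with 5 TPM or more, and the scarce TIMM23B stood at -0.42.

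Between WT and MT, TIMM29 footprints were higher in WT (0.64), the 1 of 34 members past 1.5-fold, where 12.5% of all genes passed. Of the 2549 genes within 2-fold of its level, 4.39% differed by as much, and the call was lost with a pseudocount of 5 (0.58). TIMM8A (0.41) and TOMM20 (0.20) were next among members with 5 TPM or more. CHCHD4 (-0.42), TOMM40 (-0.40) and PAM16 (-0.34) were lowest. Of the members 14 of 34 lay above 0, with a median of -0.06, against 51.6% and 0.01 for all genes.

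**Figure D3:**
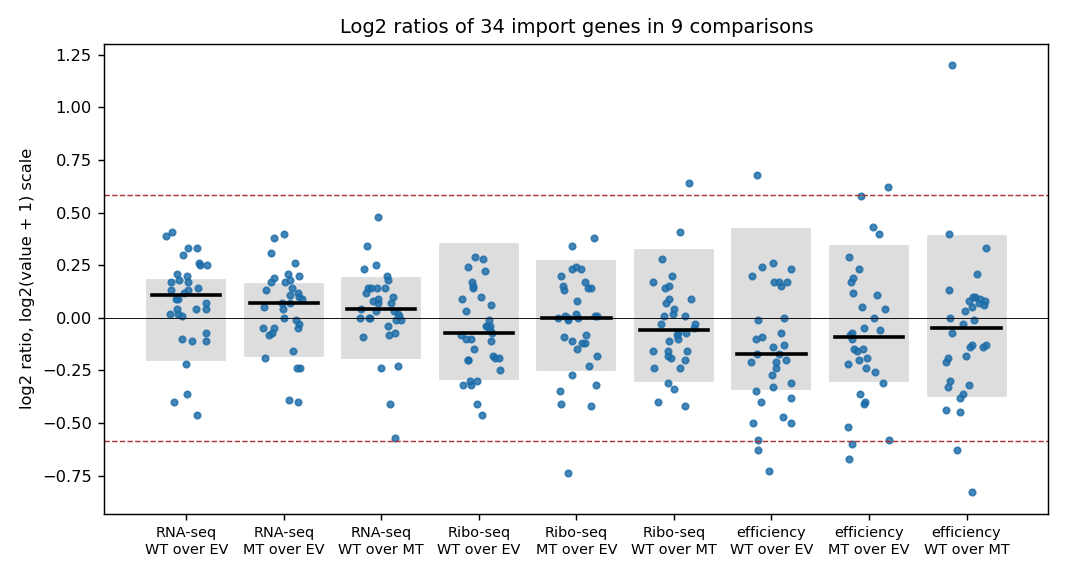
Log2 ratios (y axis, log2(value + 1) scale) of 34 import genes in 3 RNA-seq, 3 Ribo-seq and 3 translational efficiency comparisons; black bars are medians, grey boxes the median of all genes plus and minus its robust SD, dashed lines the 1.5-fold thresholds. The RNA-seq medians lie above 0. Those of Ribo-seq WT over EV, Ribo-seq WT over MT and efficiency lie below 0. TIMM29 is the highest point of the last column.

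Translational efficiency, taken as the footprint log2 ratio less the mRNA log2 ratio, collects what differed between the assays. In WT over EV 24 of 34 members lay below 0 and 10 above, with a median of -0.17. Of all genes 53.7% lay above 0, with a median of 0.04. More mRNA but fewer footprints in WT were found in 19 of 34 members and in 23.5% of all genes. Past 1.5-fold were 3 of 34, where 16.9% of all genes passed. These were TOMM40 (-0.73) and TOMM22 (-0.63), the pore and the central receptor of the TOM complex, downward and TIMM29 (0.68) upward. TIMM17B (-0.58) lay just inside the threshold and passed it with a pseudocount of 0.1 or centring on the median gene. Of genes within 2-fold of the level of TOMM40, 4.84% differed by as much, and the same share was 4.05% for TOMM22 and 8.76% for TIMM29. For efficiency this level is the mean of the mRNA and footprint values together, so genes are not matched on each assay. Such shares, here, above and below, are given for members picked for their large ratios among 34. Low shares therefore follow in part from the picking. With a pseudocount of 5 in place of 1, TOMM40 alone stayed past the threshold, and at a minimum of 10 units TIMM29 was not compared. ACTB, a cytoskeletal reference gene outside the import machinery, had the same pattern, with 1619 FPKM in EV and 1889 in WT as mRNA but 12118 and 9676 TPM as footprints, while GAPDH stood at 2303 and 2386 FPKM and at 2801 and 2836 TPM. Members are read from the same libraries and are not replicates of each other.

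In MT over EV 22 of 34 members lay below 0 and 12 above, with a median of -0.09. Of all genes 52.0% lay above 0, with a median of 0.02. Past 1.5-fold were 3 of 34 members, where 13.7% of all genes passed. TIMM17B (-0.67) and TIMM10 (-0.60) were lower and CHCHD4 (0.62) was higher. Of genes within 2-fold of their levels, 4.43%, 2.16% and 9.10% differed by as much. For TIMM17B the WT over EV value, against the same EV libraries, was -0.58. TIMMDC1 (0.58) and TOMM40L (-0.58) lay just inside the threshold. With a pseudocount of 5, TIMM17B alone stayed past it, and at a minimum of 10 units CHCHD4 was not compared.

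In WT over MT 20 of 34 members lay below 0 and 14 above, with a median of -0.05. Of all genes 50.8% lay above 0, with a median of 0.01. Past 1.5-fold were 3 of 34, where 17.7% of all genes passed. TIMM29 was higher in WT by 1.20 on the log2 scale (2.30-fold), as WT had less of its mRNA and more footprints than MT. Of the genes within 2-fold of its level, 1.42% differed by as much. That level was mostly footprints, so those genes were not matched on the scarce TIMM29 mRNA. PAM16 (-0.83) and TOMM40 (-0.63) were lower in WT. The same share was 2.76% for PAM16 and 8.005% for TOMM40. For TIMM29 mRNA the values lie between 4.05 and 6.49 FPKM, where adding 1 shrinks a ratio more than it does for TOMM40, and at a minimum of 10 units it was not compared. With a pseudocount of 5 TOMM40 stood at -0.58, short of the threshold.

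**Figure D4:**
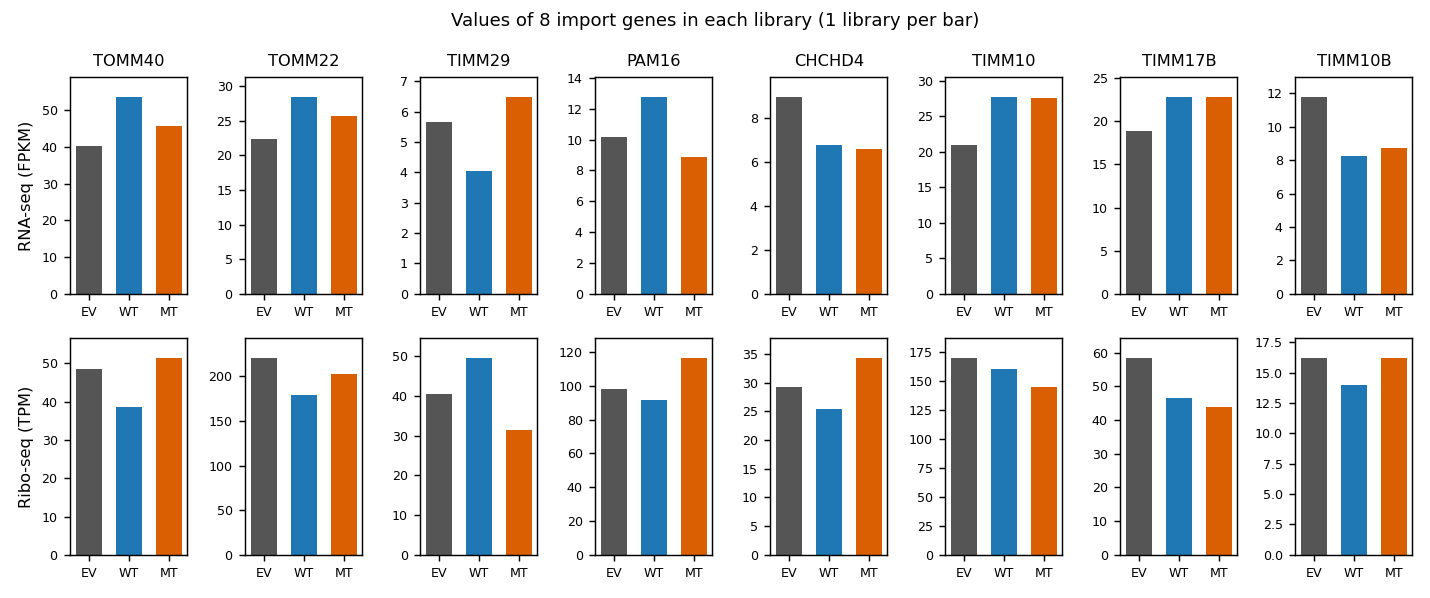
RNA-seq (top, FPKM) and Ribo-seq (bottom, TPM) value of 8 import genes in the EV, WT and MT libraries, 1 library per bar and axes from 0. For TOMM40 and TOMM22 WT is the highest mRNA bar and the lowest footprint bar, and for TIMM29 it is the reverse.

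The start sites of these genes were searched for short motifs in RefSeq promoters (GRCh38.p14), which run from 250 bases before to 50 after the start and exist in the table for 32 of the 35 members, all but GRPEL1, TIMM8B and TOMM5. Nuclear respiratory factor 1 (NRF1) and the ETS factor GABP, also called nuclear respiratory factor 2, are known activators of nuclear genes for mitochondrial proteins. The ETS motif CCGGAAG was found on either strand in 14 of 32 members (43.8%), against 24.2% of 9181 genes at 1 FPKM or more and 12.2% of all 27305 symbols. An NRF1 core, GCGCANGCG, was found in 10 (31.2%, against 18.3% and 9.02%). A YY1 motif, AAGATGGCG, was found in 3 (9.38%, against 5.13% and 2.14%), a GC box, GGGCGGG, in 13 (40.6%, against 62.9% and 36.7%) and CCAAT in 11 (34.4%, against 43.8% and 39.7%). TIMM13, TIMM29, TOMM20 and TOMM34 held both an ETS and an NRF1 match, and no such pair overlapped. The mRNA log2 ratio is given by motif as a description. In WT over EV its median was 0.04 in the 14 members with an ETS match and 0.13 in the 17 others that were measured, and 0.09 in both the 10 with and the 21 without an NRF1 match. A match is a description of letters and not of binding.

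For 6 members that the differences above turn on and that hold a match before the start site, 60 bases around it are shown 5′ to 3′ on the strand of the gene, with the ETS and NRF1 matches inside it in capitals. TIMM29, PAM16 and TOMM40 lead the differences between assays. PAM16 and CHCHD4 had their labels in different orders in the assays, and TIMM10 and TIMM10B stood apart in EV. They lie at chr19:44891006-44891065 (TOMM40, plus strand), chr19:10928708-10928767 (TIMM29, plus), chr16:4351322-4351381 (PAM16, minus), chr3:14124927-14124986 (CHCHD4, minus), chr11:57530755-57530814 (TIMM10, minus) and chr11:6481430-6481489 (TIMM10B, plus).
TOMM40: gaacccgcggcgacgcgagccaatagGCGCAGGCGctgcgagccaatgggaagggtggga
TIMM29: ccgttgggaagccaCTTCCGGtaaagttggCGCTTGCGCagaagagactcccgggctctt
PAM16: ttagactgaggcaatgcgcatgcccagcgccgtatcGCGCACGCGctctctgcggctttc
CHCHD4: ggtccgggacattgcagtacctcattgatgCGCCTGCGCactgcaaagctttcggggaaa
TIMM10: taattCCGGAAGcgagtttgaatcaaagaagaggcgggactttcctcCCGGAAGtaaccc
TIMM10B: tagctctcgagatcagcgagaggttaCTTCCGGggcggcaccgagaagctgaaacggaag
TIMM29 shows an ETS and an NRF1 match within the same stretch, TIMM10 shows a pair of ETS matches, and TIMM10B shows 1 ETS match. TOMM40, PAM16 and CHCHD4 show 1 NRF1 match each within these stretches. Outside them, CHCHD4 has overlapping NRF1 matches that begin at bases -152 and -151 from the start site, and TIMM29 has 1 at base -189. TIMM10 and TIMM10B both carry an ETS match, and their mRNA log2 ratios in WT over EV were 0.39 and -0.46. A link between a match and a ratio was not tested.

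The other 53 genes of the import pathway, a list of partners, peptidases, cristae and import stress genes, were counted in the same way. In RNA-seq 0 of 53 passed in WT over EV, 0 of 52 in MT over EV and 0 of 53 in WT over MT, where 2.63%, 2.31% and 3.23% of all genes did. Their median log2 ratios were 0.04, 0.03 and 0.01. The most abundant were HSPA8, the cytosolic HSP70 that carries precursors to TOMM70 (676, 893 and 777 FPKM in EV, WT and MT), and HSPD1, the matrix chaperonin (652, 748 and 693 FPKM). In Ribo-seq 0 of 53 passed in WT over EV, 2 in MT over EV and 0 in WT over MT, where 12.1%, 10.8% and 12.5% of all genes did. The median log2 ratios were 0.08, 0.00 and 0.01. In WT over EV 35 of the 53 lay above 0, beside 11 of the 34 members; the difference between the lists was not tested. HSPE1, the partner of HSPD1, stood at 2065, 2372 and 2274 TPM and CHCHD2 at 1416, 1419 and 1413 TPM. Both genes past the threshold in MT over EV were higher in MT. ATF5, a transcription factor of the mitochondrial stress response, stood at 10.6, 13.9 and 19.4 TPM in EV, WT and MT, a log2 ratio of 0.81 in MT over EV. APOO, a subunit of the cristae organising system, stood at 39.1, 50.1 and 59.9 TPM, a log2 ratio of 0.60. ATF5 mRNA stood at 5.34, 5.74 and 7.37 FPKM, and APOO mRNA at 16.4, 17.8 and 16.1 FPKM.

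In translational efficiency 5 of the 53 passed in WT over EV, 2 of 52 in MT over EV and 5 of 53 in WT over MT. All 3 counts are a smaller share than over all genes (16.9%, 13.7% and 17.7%), so the genes named next are a description by size. CHCHD6, another cristae protein, was higher in WT over EV (0.98) and over MT (0.96), with less mRNA in WT (5.61 FPKM, 8.39 in EV and 8.78 in MT) and more footprints (16.3 TPM, 11.5 and 12.2). DNAJC19, the J-protein partner of PAM16, was higher in WT over EV (0.72) and over MT (0.63). Its mRNA stood at 14.7, 12.6 and 14.8 FPKM in EV, WT and MT and its footprints at 31.9, 46.2 and 34.4 TPM. IMMP1L, a subunit of the inner membrane peptidase, was higher in WT over EV (0.64) and over MT (0.71). Its mRNA was scarce, at 3.07, 2.90 and 4.07 FPKM in EV, WT and MT. CLPX, a matrix unfoldase, was higher in WT over MT (0.86). GRPEL2, a paralogue of GRPEL1, was the 1 gene lower in WT over MT (-0.61). DNLZ, a helper of the matrix HSP70, was lower in WT over EV (-1.07), with mRNA near 1 FPKM (0.537 in EV and 1.18 in WT). IMMP2L, another subunit of the inner membrane peptidase, was also lower in WT over EV (-0.61). Its mRNA stood at 4.53 FPKM in EV and 6.15 in WT. In MT over EV DNAJC30 was lower (-0.70) and APOO higher (0.63). GRPEL2 and IMMP2L were added to the named genes after their values were seen.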

How the data were processed

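The members and gene lists were chosen with earlier results of these data known. The single deposited table held 20307 rows. The deposited RNA-seq values, whose header names no unit, were read as FPKM from sums of 459938 to 469859; TPM over a larger gene set is possible. The deposited Ribo-seq columns were read as TPM because each sums to 1000000. The submitters' processing notes name build hg 18. The sources used here do not give the aligner, the counting or the annotation. Columns were matched to samples by name. Rows without a gene name (605) and 7 symbols found on more than 1 row were dropped. A gene was compared if either library reached 1 unit (for efficiency, in both assays). Ratios are on log2(value + 1), which shrinks those of low genes, and calls were made at 1.5-fold. The rule for named genes was: the 3 highest and 3 lowest members with 5 units in each comparison, members past the threshold, and 8 channel and receptor genes; of the other pathway genes, up to 4 past the threshold or else the 2 most abundant. The arithmetic was checked on simulated data with known changes and less scatter than the libraries compared here. That check therefore says nothing on how many calls noise could give. Values were computed with Python 3.11.15, numpy 2.4.6 and pandas 2.3.3. Alternatives were 2 other pseudocounts, 2 other minimums, centring on the median gene, a 2-fold call and leaving out TIMM23 and TIMM23B.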

Additional observations from a re-analysis of the deposited data

Results flagged for a closer look

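For 7 members the RNA-seq and Ribo-seq ratios of the same comparison pointed opposite ways and lay at least 1.5-fold apart. With 1 library per label and assay these differences between the assays were not tested. They are 3 of 34 members in each comparison. Whatever the signs, 16.9%, 13.7% and 17.7% of all genes differed that far between the assays (WT over EV, MT over EV, WT over MT). At a minimum of 10 units those shares were 10.1%, 6.35% and 10.9%, beside 2 of 27, 2 of 27 and 2 of 26 members. In MT over EV the members' share was then the larger. In WT over EV the footprint log2 ratio less the mRNA log2 ratio was -0.73 for TOMM40, -0.63 for TOMM22 and 0.68 for TIMM29. In MT over EV it was -0.67 for TIMM17B, -0.60 for TIMM10 and 0.62 for CHCHD4. In WT over MT it was 1.20 for TIMM29, -0.83 for PAM16 and -0.63 for TOMM40.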

How the results depend on the processing

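Each of the 9 counts of members past 1.5-fold was recomputed under 7 alternatives, and 49 of the 63 values stayed within 1.5 times the main count. Part of these 49 could not have moved. Neither TIMM23 nor TIMM23B was called, so leaving them out could change no count. Where a single-assay count was 0, a pseudocount of 5, a minimum of 10 units or a 2-fold call could only give 0 again. No single member's called ratio changed sign. With a pseudocount of 0.1 the count became 1 (TIMM29; 6.11% of all genes) in RNA-seq WT over MT, 1 (TOMM40L; 17.5%) in Ribo-seq WT over EV, and 5 in translational efficiency WT over EV (21.8%) and MT over EV (18.5%), from 3 each. With a pseudocount of 5 it became 0 in Ribo-seq MT over EV and WT over MT (2.76% and 3.45% of all genes), from 1 each. It became 1 in translational efficiency WT over EV (TOMM40, 6.502%) and MT over EV (TIMM17B, 4.63%). In efficiency WT over MT TOMM40 was lost, which left 2 of 34 (7.05%). At a minimum of 10 units the count became 0 in Ribo-seq MT over EV, since TOMM40L was no longer measured (5.68% of all genes). The efficiency calls of TIMM29 (WT over EV, WT over MT) and CHCHD4 (MT over EV) were lost in the same way. That left 2 of 27 members in WT over EV (10.1% of all genes), 2 of 27 in MT over EV (6.35%) and 2 of 26 in WT over MT (10.9%). A 2-fold call left 0 in Ribo-seq MT over EV and WT over MT (2.83% and 3.19% of all genes) and in translational efficiency WT over EV and MT over EV (4.21% and 3.51%), and 1 (TIMM29; 4.82%) in WT over MT. TIMM29's efficiency ratio in WT over MT ran from 0.92 to 1.32 over the pseudocounts. Beyond the shrinking of ratios by a larger pseudocount and the stricter thresholds themselves, the cause was not tested. No paired analysis was possible because each label had 1 library per assay. For the same reason no library could be left out.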

Other observations

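In Ribo-seq, 33 of the 11773 genes above 0 in all 3 libraries carried the same 3 values as another gene, TIMM23B and TIMM23B-AGAP6 among them. In RNA-seq the 2 symbols had different values, with TIMM23B-AGAP6 at 0.202, 2.03 and 1.36 FPKM in EV, WT and MT, and TIMM23B at 4.92, 4.52 and 4.88 FPKM.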
